A study of Equus caballus with 78 samples.

Results

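The 293 horse microRNA names numbered 8900 to 9200 were described across all 78 libraries of the series. They were chosen by name alone, as every entry whose number after eca-miR- lies in that range, and they are 293 of the 690 horse microRNA names counted. Their numbers run from 8908 to 9185, with 278 distinct numbers and 18 names that carry a letter suffix. The other 397 names, all numbered lower or carrying no such number, served for comparison. High-numbered names were rarely read: 13 of 293 (4.44%) had a read in any library, against 257 of 397 lower-numbered names (64.7%). They took 3924 of 5641465 microRNA reads (0.0696%), against 5637541 reads (99.93%) for the lower-numbered names.

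The libraries hold small RNA of extracellular vesicles, membrane-bound particles shed by cells, from 4 horses (numbered 2, 4, 6 and 8) in a model of osteoarthritis, a degenerative joint disease. Vesicles came from plasma (26 libraries), from synovial fluid, the lubricating fluid of joints, of a joint named OA (26 libraries), and from synovial fluid of a joint named CTRL (26 libraries). Each was sampled at time points 0, 10, 35, 42, 49, 56 and 63, which carry no unit in the labels, giving 21 groups of 3 or 4 libraries. Horse 4 at time point 10 and horse 2 at time point 63 were not analysed here. The sources used here do not say how osteoarthritis was brought about, nor the breed, age or sex of the horses. All 3 sources come from the same horses, so the CTRL joint belongs to an animal that also has an OA joint, and libraries of 1 horse are repeated measures. In such bulk samples, fewer vesicles of a kind and less RNA per vesicle cannot be told apart.

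MicroRNAs are short RNAs, cut from hairpin precursors, that pair through a seed near their 5′ end with messenger RNAs and repress them. Vesicles carry some of them out of the cell, and different cells shed into synovial fluid and plasma. MicroRNA numbers are given in order of entry to the registry, and orthologs in different species share a number, so low numbers include the widely conserved families, while many high numbers are names that only 1 species holds. The files annotate no target or role for any of the 13 names with reads, so none is given.

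MicroRNA reads per library ran from 3916 to 1865513, out of library totals of 2029244 to 12613572 reads. Their medians were 14055 in plasma, 42865.5 in OA-joint fluid and 26141 in CTRL-joint fluid. Levels are given as CPM, reads scaled to a common number of microRNA reads per library. A count of 0 in 1 library allowed up to 1.61 to 766 CPM in plasma, 37.5 to 261 CPM in the OA joint and 12.5 to 691 CPM in the CTRL joint (3 reads, counting error only). Over the 26 libraries pooled, 0 reads allowed up to 0.921 CPM in plasma, 2.55 CPM in the OA joint and 2.48 CPM in the CTRL joint. Without the 3 plasma libraries in which microRNA was over 5% of the library total, the plasma limit was 5.79 CPM. Of the 36 libraries on lane 1 of the flow cell, as the names of the deposited files give it, 26 are plasma, 2 OA joint and 8 CTRL joint. The 42 libraries on lane 2 are all synovial fluid, so lane and fluid are partly tied. The 3 erythrocyte microRNAs listed took a median of 40.3% of microRNA reads in plasma, 6.63% in OA-joint fluid and 8.7% in CTRL-joint fluid. The 4 fibroblast and mesenchymal ones took 1.61% in plasma, 19.1% in OA-joint fluid and 17.6% in CTRL-joint fluid. The part of these cell types in the values below was not tested. Lane was taken up only where a value on 1 lane is given, and as a covariate in alternative fits. Those were the fits of single synovial fluid libraries, in which lane was an added term.

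The share of names with a read was lower at higher numbers. All 6 let-7 names had reads, as did 112 of 132 names numbered 1 to 199 (84.8%). Among names numbered 200 to 499 it was 88 of 124 (71.0%), among those numbered 500 to 999 it was 36 of 77 (46.8%), and among those numbered 1000 to 8899 it was 15 of 58 (25.9%). The range 8900 to 9200 had the lowest share of these ranges. It holds 1 name with reads in 10 or more libraries, miR-8993, against 119 among the lower-numbered names. These shares describe the names in 78 libraries of 4 horses, and no test was run on them, since names are not replicates.

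**Figure D1:**
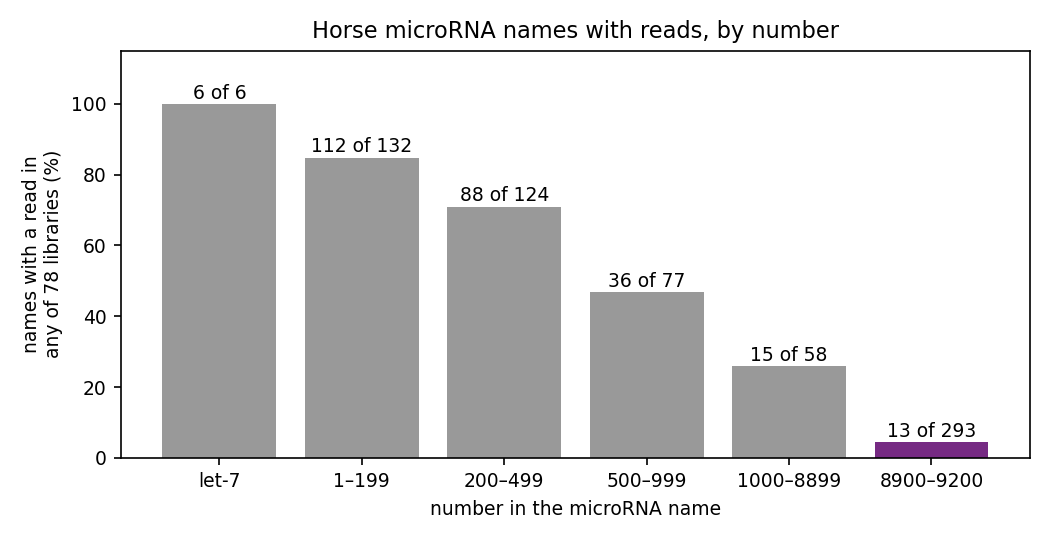
Bars give the percent of horse microRNA names with at least 1 read in any of the 78 libraries (vertical axis), by the number in the name (horizontal axis), with the counts above each bar. The bar of names numbered 8900 to 9200 stands at 4.44%, below the 25.9% of names numbered 1000 to 8899.

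Within the range, names with reads were spread over the numbers. A read was found for 3 of 55 from 8900 to 8949, 1 of 51 from 8950 to 8999 and 1 of 50 from 9000 to 9049. Further up, 3 of 51 had a read from 9050 to 9099, 4 of 50 from 9100 to 9149 and 1 of 36 from 9150 to 9199. None of the 18 names with a letter suffix had a read. A single name, miR-8993, held 2687 of the 3924 reads (68.5%). It was followed by miR-8917 with 386 reads (9.84%), miR-9021 with 361 (9.2%) and miR-9094 with 109 (2.78%). The other 9 names, miR-8923, miR-8934, miR-9055, miR-9097, miR-9104, miR-9121, miR-9138, miR-9141 and miR-9180, had 1 to 85 reads each.

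By fluid, 4 high-numbered names had a read in plasma, 9 in OA-joint fluid and 6 in CTRL-joint fluid. Of the lower-numbered names, 230 (57.9%) had one in plasma, 185 (46.6%) in OA-joint fluid and 182 (45.8%) in CTRL-joint fluid. The plasma count of lower-numbered names depends on 3 plasma libraries rich in microRNA: without them it was 163 (41.1%), below both joints, while 4 high-numbered names still had a read. The number of libraries with a high-numbered read was 7 of 26 in plasma, 15 of 26 in the OA joint and 11 of 26 in the CTRL joint, 33 of 78 in all. Of these 33 libraries, 25 held 1 such name and 8 held 2.

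Only miR-8993 was read in all 3 sources. Reads of miR-8917, miR-9021 and miR-9055 were in both joints and not in plasma, and miR-8923 was in plasma and the OA joint with 1 read each. The names read in the OA joint alone were miR-8934, miR-9094, miR-9104 and miR-9141, those in the CTRL joint alone miR-9097 and miR-9138, and those in plasma alone miR-9121 and miR-9180. Of these 8 names, 6 rest on 1 library each, and miR-9094 and miR-9104 each rest on 1 library apart from single reads. None of these 8 names passed the filter on low counts, so they were tested only in alternative fits with no filter. In those fits miR-8934 (edgeR adjusted p = 0.0478) and miR-9141 (0.0454) passed for change over time in the OA joint. For change over time in plasma miR-9180 passed (edgeR adjusted p = 0.02). Each of these calls rests on 1 library.

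By time point, all sources together, 2 names had reads at time point 0, 3 at time point 10, 4 at time points 35 and 42, 5 at time points 49 and 56 and 3 at time point 63. Libraries with a high-numbered read numbered 4 of 12 at time point 0, 4 of 9 at 10, 4 of 12 at 35, 4 of 12 at 42, 6 of 12 at 49, 7 of 12 at 56 and 4 of 9 at 63. Reads were 943 at time point 0, 372 at 10, 427 at 35, 351 at 42, 516 at 49, 976 at 56 and 339 at 63. As shares of microRNA reads these were 0.179%, 0.0375%, 0.106%, 0.0688%, 0.081%, 0.248% and 0.0155%, as depth differs between time points. Lower-numbered names with reads numbered 157, 178, 147, 147, 166, 147 and 227 at the same time points. The peaks at 0 and 56 come from few libraries: miR-8993 in 1 CTRL-joint library gave 775 of the reads at time point 0, and it gave 421 in 1 plasma library and 375 in 1 CTRL-joint library of those at 56. None was found in plasma at time points 42, 49 and 63, nor in the OA joint at time point 0. By horse, 7 names were read in horse 2, 3 in horse 4, 7 in horse 6 and 8 in horse 8. Lower-numbered names with reads numbered 172, 161, 195 and 235 in these horses.

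The share of microRNA reads held by the high-numbered names was 0.186 ± 0.246% in plasma, 0.0977 ± 0.0616% in OA-joint fluid and 0.314 ± 0.263% in CTRL-joint fluid (mean over horses of their library means, SD, n = 4 horses). In plasma the 4 horse means were 0, 0.537, 0.173 and 0.0329% for horses 2, 4, 6 and 8. OA-joint means of these horses were 0.0992, 0.0276, 0.177 and 0.0866%, and CTRL-joint means were 0.0779, 0.542, 0.0943 and 0.541%. The ranges of the 3 sources overlap, and the order of horses differs between them. Reads pooled over libraries gave 0.0173% in plasma, 0.123% in OA-joint fluid and 0.158% in CTRL-joint fluid, which weights deep libraries more. On lane 1 alone the pooled share was 0.0173% in plasma, 0.31% in OA-joint fluid and 0.275% in CTRL-joint fluid, and on lane 2 alone it was 0.105% in OA-joint fluid and 0.136% in CTRL-joint fluid, so the order of the joints differs between lanes. The lane 1 value of the OA joint rests on 2 libraries, both of horse 6, and on miR-8993 alone.

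The plasma value depends on that weighting, because 3 plasma libraries, 1 each of horses 2, 6 and 8, held 260030, 613396 and 1865513 microRNA reads with 0, 1 and 0 high-numbered reads. Without them the pooled share in plasma was 0.108%. Single libraries reached 3.22% in plasma, 0.513% in OA-joint fluid and 3.11% in CTRL-joint fluid. A share over 1% was found in 2 plasma libraries, no OA-joint library and 2 CTRL-joint libraries. The median library was at 0% in plasma, 0.00278% in OA-joint fluid and 0% in CTRL-joint fluid.

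Libraries with a high-numbered read were not consistently the deeper ones. In plasma, those with such a read had a median of 13070 microRNA reads and those without 19485. Medians were 50086 with and 35699 without in the OA joint, and 24911 with and 27371 without in the CTRL joint.

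Counts of these names were either 1 or 2 or well above that. The 13 names gave 41 values above 0: 12 were 1 read, 1 was 2 reads, and 28 lay between 16 and 775 reads, with none from 3 to 15. The gap was noticed in these values, so it is a description. Among all lower-numbered names with reads, 16.6% of 5808 values above 0 were 1 or 2 and 5.15% were 3 to 15. A closer comparison takes the 165 lower-numbered names with up to 2687 reads in all, the total of miR-8993. Of their 860 values above 0, 24.4% were 1 or 2 and 2.33% were 3 to 15, so a thin middle was also seen in these lower-numbered names. They are not matched in abundance: their median total was 299 reads, against 78 for the high-numbered names.

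**Figure D2:**
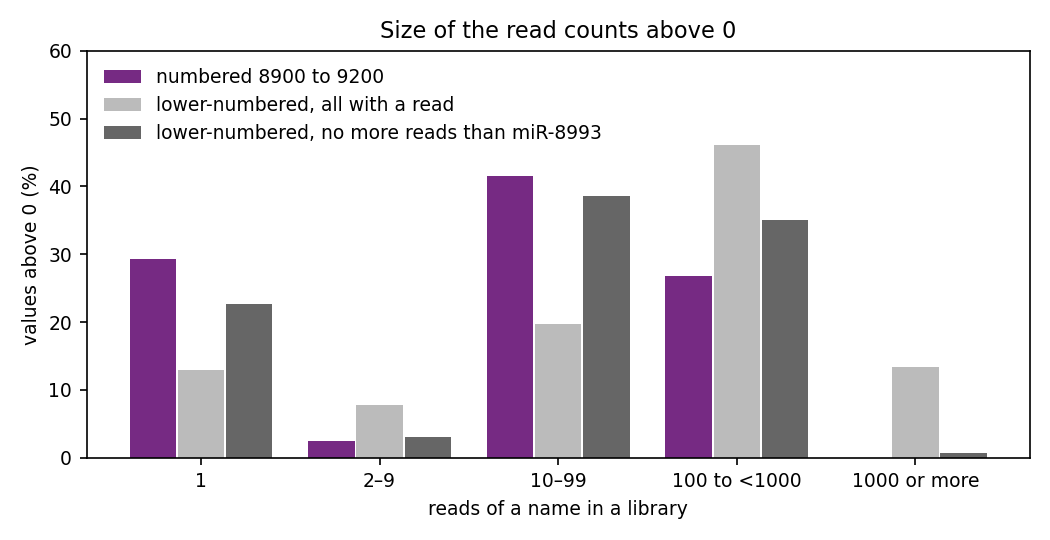
Bars give the percent of values above 0 (vertical axis) by the reads of a name in a library (horizontal axis), for names numbered 8900 to 9200 (41 values), for all lower-numbered names with a read (5808 values) and for lower-numbered names with 1 to 2687 reads in all (860 values). Few values fall between 2 and 9 reads among high-numbered names and among lower-numbered names with 1 to 2687 reads in all. The high-numbered names have none from 3 to 15.

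High-numbered names were also concentrated in few libraries. Their median was 2 libraries a name, against 4 for the 165 lower-numbered names with up to 2687 reads and 8 for all 257 with reads. The library with the most reads of a name held a median of 98.8% of its reads among high-numbered names, against 58.7% among those 165 names. Reads in 1 library alone were found for 6 of 13 high-numbered names (46.2%), against 52 of 165 (31.5%). Median totals differ between these sets, at 78 reads for the high-numbered names and 299 for those 165, and the part of this in the difference was not tested.

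miR-8993 had reads in 18 of 78 libraries and in all 4 horses. In plasma it had 1 read in horse 8 and 88 in horse 6 at time point 0, 1 in horse 6 at time point 10 and 16 in horse 6 at time point 35. At time point 56 plasma held 421 reads in horse 4 and 1 each in horses 6 and 8. Plasma values were thus either 3 libraries with 16 or more reads or 4 with a single read, and horse 2 had none.

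In the OA joint miR-8993 had 261 reads in horse 6 at time point 10, 84 in horse 8 at time point 35, 153 in horse 6 and 34 in horse 2 at time point 42, and 169 in horse 6 at time point 63. Horse 6 thus held 3 of the 5 OA-joint libraries with reads, and horse 4 none. In the CTRL joint it had 775 reads in horse 8 and 48 in horse 2 at time point 0, 86 in horse 6 and 148 in horse 4 at time point 49, 375 in horse 4 at time point 56 and 25 in horse 8 at time point 63. All 4 horses had reads in the CTRL joint, none of them in more than 2 libraries.

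As levels, miR-8993 reached 32210 CPM in plasma of horse 4 (time point 56), 31110 CPM in the CTRL joint of horse 8 (time point 0), 27750 CPM in the CTRL joint of horse 4 (time point 56) and 10680 CPM in plasma of horse 6 (time point 0). These are 3.22% of the microRNA reads in plasma of horse 4 (exact 95% binomial interval 2.93 to 3.54), 3.11% in the CTRL joint of horse 8 (2.9 to 3.33), 2.77% in the CTRL joint of horse 4 (2.5 to 3.07) and 1.07% in plasma of horse 6 (0.857 to 1.31). Among the names with reads in a library it ranked 5 of 64 at 32210 CPM, 9 of 73 at 31110 CPM, 10 of 61 at 27750 CPM and 17 of 72 at 10680 CPM. These 4 libraries hold 61.7% of its reads. Its highest level in the OA joint was 3637 CPM, in horse 6 at time point 10.

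**Figure D3:**
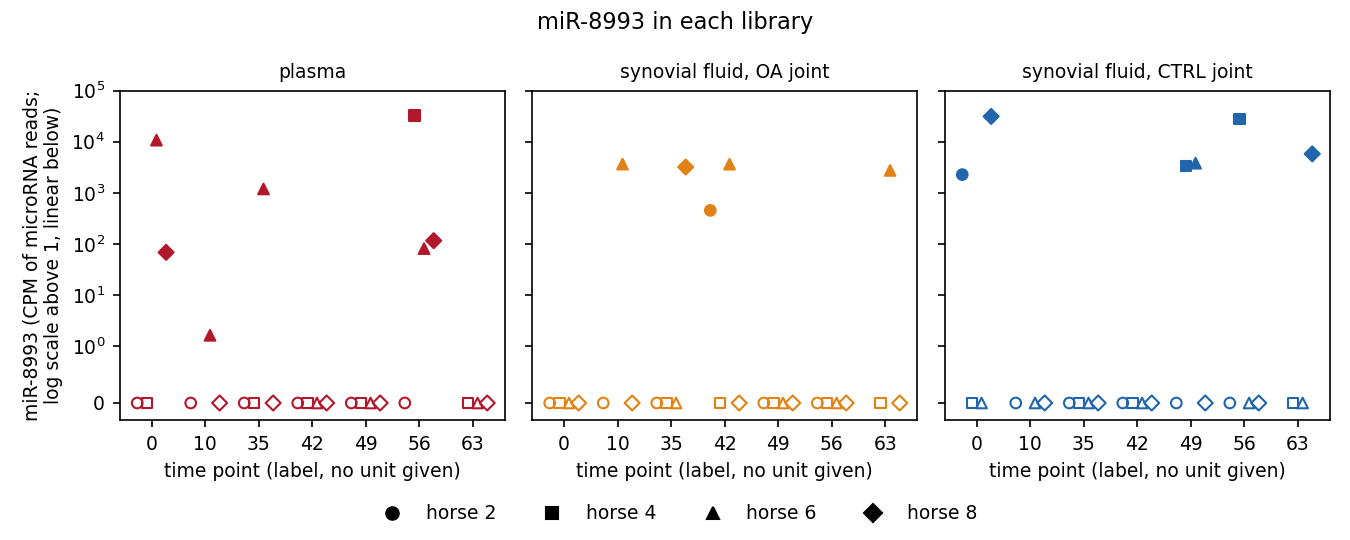
Points give miR-8993 in each library as CPM of microRNA reads (vertical axis, log scale above 1 and linear below, with 0 drawn) by time point (horizontal axis, no unit in the labels), in plasma, the OA joint and the CTRL joint, with a marker shape for each horse and open markers at 0. Of 78 libraries 60 are at 0, and the 4 over 10000 CPM are 2 of plasma and 2 of the CTRL joint.

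No group had these reads in every horse. Of the 21 groups of fluid and time point, 12 had reads of miR-8993, and at most 3 libraries of a group had any. In counts summed per horse, miR-8993 was at 0, 3759, 135.4 and 1.032 CPM in plasma of horses 2, 4, 6 and 8, and at 101, 0, 1943 and 243.7 CPM in the OA joint of these horses. CTRL-joint sums of miR-8993 were 97.35, 2422, 474.6 and 2502 CPM in horses 2, 4, 6 and 8. Means were 974 ± 1858 CPM in plasma, 571.8 ± 919.4 CPM in the OA joint and 1374 ± 1266 CPM in the CTRL joint (SD, n = 4 horses). Weighting each library of a horse equally, they were 1775 ± 2525 CPM in plasma, 489.6 ± 656.4 CPM in the OA joint and 2843 ± 2753 CPM in the CTRL joint. The SD exceeds or nearly equals the mean in each source either way. By pooled reads it ranked 127 of 234 names with reads in plasma, 85 of 194 in the OA joint and 66 of 188 in the CTRL joint. By the mean of library CPM its ranks were 52 in plasma, 90 in OA-joint fluid and 53 in CTRL-joint fluid, so the order of the sources depends on how depth is weighted.

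miR-8917 had reads in 3 libraries, all of synovial fluid. Horse 2 had 74 reads (1265 CPM) in the OA joint at time point 49 and 245 reads (2407 CPM) in the CTRL joint at time point 35. Horse 6 had 67 reads (2778 CPM) in the CTRL joint at time point 63. Summed per horse it was at 54.93 ± 109.9 CPM in the OA joint and 216.6 ± 255.5 CPM in the CTRL joint (SD, n = 4 horses), and 0 in plasma. Horses 4 and 8 had none in either joint.

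miR-9021 had reads in 5 synovial fluid libraries, all on lane 2. In the OA joint these were 62 reads (825.1 CPM) in horse 2 at time point 42, 164 (2821 CPM) in horse 8 and 1 in horse 4 at time point 49, and 34 (930.6 CPM) in horse 6 at time point 56. In the CTRL joint there were 100 reads (1395 CPM) in horse 4 at time point 42. Each horse thus had at least 1 read in its OA joint, but only horse 4 had any in its CTRL joint. Summed per horse it was at 194.6 ± 201.4 CPM in the OA joint and 115.8 ± 231.6 CPM in the CTRL joint (SD, n = 4 horses), so the joints overlap.

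miR-9094 was read in the OA joint alone, with 107 reads (1491 CPM) in horse 6 and 1 in horse 2 at time point 10, and 1 in horse 8 at time point 42. Its level there rests on the library of horse 6.

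The names with fewer reads stood each on 1 library or nearly so. In the OA joint miR-8934 had 81 reads in horse 2 at time point 35, and miR-9141 had 78 in horse 4 at time point 63. Horse 2 at time point 56 gave miR-9055 84 reads and miR-9104 58 reads. In the CTRL joint miR-9097 had 42 reads in horse 8 at time point 49, where miR-9055 had 1, and miR-9138 had 2 reads in horse 6 at time point 10. In plasma miR-9180 had 31 reads in horse 8 at time point 0, and miR-9121 had 1 read in horse 6 at time point 35. miR-8923 had 1 read in plasma of horse 6 and 1 in the OA joint of horse 8, both at time point 56, and miR-9104 had 1 more read in the OA joint of horse 8 at time point 42.

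The 8 libraries with 2 high-numbered names held 8 different pairs, and in 3 of them both names had over 2 reads. Besides miR-9055 with miR-9104, these were miR-8993 (261 reads) with miR-9094 (107) in the OA joint of horse 6 at time point 10, and miR-8993 (34) with miR-9021 (62) in the OA joint of horse 2 at time point 42. No pair recurred in another library.

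**Figure D4:**
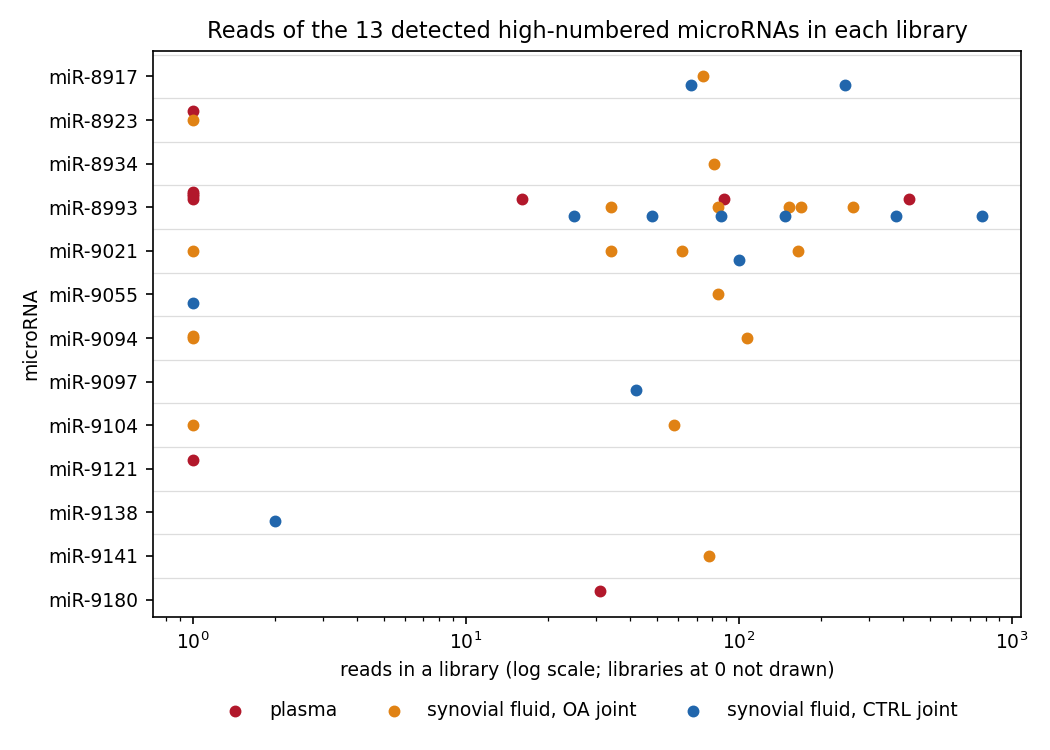
Points give the reads of each of the 13 detected high-numbered names (vertical axis) in each library with at least 1 read (horizontal axis, log scale), for plasma, the OA joint and the CTRL joint. Values are 1 or 2 reads or at least 16, and miR-8993 alone has reads in all 3 sources.

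Plasma was compared with each joint in counts summed per horse, 4 sums against 4, to ask whether the fluids differ. Of the high-numbered names only miR-8993 had enough reads to be tested. Against the CTRL joint its log2 fold was -0.48 (SE 1.90, edgeR quasi-likelihood test, adjusted p = 0.895), so 0 of 1 tested high-numbered name passed, where 27 of 126 features (21.4%) did. That count was 2 of 106 when the 3 microRNA-rich plasma libraries were left out, and 1 of 123 on lane 1 alone. On lane 1 the log2 fold was -2.26 (SE 2.02, edgeR adjusted p = 0.475, range over all alternatives 0.25 to 0.995). With all libraries DESeq2 called 37 features and no high-numbered name, and miR-8993 had an unadjusted p of 0.803 in edgeR. Against the OA joint its log2 fold was 1.31 (SE 2.41, edgeR adjusted p = 0.856), and 0 of 1 passed, where 31 of 126 features (24.6%) did. There its unadjusted p in edgeR was 0.598, and DESeq2 called 36 features and gave it no p. Blocking on horse, 28 features (22.2%) passed against the CTRL joint and 29 (23%) against the OA joint, miR-8993 not among them. Both folds change sign without a single horse: without horse 8 plasma stood at 0.44 against the CTRL joint, and without horse 4 at -3.79 against the OA joint. Without horse 4, miR-9021 had enough reads to be tested and passed in plasma against the OA joint (edgeR adjusted p = 0.0413), with 0 reads in plasma. In that fit 1 of 2 tested high-numbered names passed, where 44 of 146 features did. miR-9021 passed the filter on low counts through its OA-joint reads alone, so nothing is read from that call. With no filter on low counts and all horses its edgeR adjusted p was 0.168.

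The OA joint was compared with the CTRL joint after time point 0, again in sums per horse. miR-8993 had a log2 fold of -0.30 (SE 2.01) and miR-9021 one of 0.83 (SE 2.52), both with an edgeR adjusted p of 0.985. Neither of these 2 tested high-numbered names passed, where 0 of 117 features (0%) did in edgeR, 10 had an unadjusted p under 0.05, and DESeq2 called 4, no high-numbered name among them. With horse as a block edgeR called 3 of 117 features (2.56%), again none of them high-numbered. The fold of miR-8993 was 2.01 without horse 4 and 1.71 with horse as a block, and that of miR-9021 was -0.22 without horse 8, so no direction between the joints is drawn for either.

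At single time points the joints were compared in 1 fit of all 52 synovial fluid libraries, in which 3 high-numbered names (miR-8917, miR-8993 and miR-9021) had enough reads. miR-8993 had reads in 1 joint only at 6 of the 7 time points, and the joint with reads was not the same throughout. At time point 0 the OA joint had 0 reads and the CTRL joint 823, at least 410-fold lower in the OA joint. It was at least 97-fold higher in the OA joint at time point 10 (261 reads against 0 in the CTRL joint), at least 33.4-fold at 35 (84 against 0) and at least 39.7-fold at 42 (187 against 0). It was at least 34-fold lower in the OA joint at time point 49 (0 reads against 234 in the CTRL joint) and at least 132-fold lower at 56 (0 against 375). At time point 63 the OA joint had 169 reads (911.8 ± 1579 CPM) and the CTRL joint 25 (1919 ± 3324 CPM, SD, n = 3 each), so reads and mean levels gave different orders. Each bound sets the group at 0 to 3 reads over the group and rests on 1 or 2 libraries in the other group.

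No high-numbered name passed at any of these time points in edgeR, with or without lane as a covariate. The share of all 139 features called was 0.719% (1 feature) at time point 35 and 0% at the other 6, while 23, 8, 23, 21, 24, 13 and 3 features had an unadjusted p under 0.05 at time points 0, 10, 35, 42, 49, 56 and 63. The edgeR adjusted p of miR-8993 was 0.283, 0.371, 0.279, 0.301, 0.281, 0.362 and 1 at those time points, and its unadjusted p was 0.00488, 0.0284, 0.0214, 0.0214, 0.0145, 0.00521 and 0.757. In DESeq2 it passed at 6 time points, with adjusted p of 0.00769, 0.041, 0.0132, 0.0167, 0.0191 and 0.00782 from time point 0 to 56. There DESeq2 called 16, 15, 19, 20, 15 and 19 features in all. Its DESeq2 log2 folds at these time points were -25.27, 24.28, 23, 22.35, -23.15 and -25.45, with SE from 7.43 to 8.58. Each was fitted against a joint with 0 reads, so the fitted values are no estimates of size. Over the alternatives that left a read in either joint, the adjusted p ran from 0.00769 to 0.466 at time point 0, 0.041 to 0.674 at 10 and 0.0132 to 0.497 at 35. It ran from 0.0167 to 0.539 at 42, 0.0191 to 0.496 at 49 and 0.00782 to 0.678 at 56. Neither joint had a read of miR-8993 at time point 10 without horse 6, at 35 without horse 8 or at 56 without horse 4. The same held at 56 without the 2 CTRL-joint libraries over 10000 CPM. The DESeq2 calls at 10, 35 and 56 thus rest on 1 horse each, and whether miR-8993 passes depends on the tool.

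For the other tested names the edgeR adjusted p of miR-8917 was 0.279 at time point 35, where the CTRL joint alone had reads, 0.285 at 49, where the OA joint alone had them, and 0.712 at 63, where the CTRL joint alone had them. miR-9021 had an edgeR adjusted p of 1 at time point 42, where each joint had 1 library with reads, and of 0.281 at 49 and 0.445 at 56, where the OA joint alone had them. At the remaining time points neither name had a read in either joint.

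Change over time was tested within each source against time point 0. In the OA joint 0 of 139 features (0%) passed in edgeR, 45 had an unadjusted p under 0.05, and DESeq2 called 0. The edgeR adjusted p was 0.0847 for miR-8917, 0.0847 for miR-8993 and 0.134 for miR-9021, with unadjusted p of 0.014, 0.0133 and 0.0415. With no filter on low counts 46 of 218 features passed there, among them 3 of the 11 high-numbered names tested. These were miR-8993, and miR-8934 and miR-9141 with reads in 1 library each. The adjusted p of miR-8993 was 0.0752 in edgeR with lane as a covariate and ran from 0.0454 to 1 over all alternatives. In the CTRL joint 0 of 139 features (0%) passed in edgeR, 46 had an unadjusted p under 0.05, and DESeq2 called 2, none high-numbered. The edgeR adjusted p was 0.0888 for miR-8993 and 0.118 for both miR-8917 and miR-9021, with unadjusted p of 0.00204, 0.0103 and 0.0222. With horse as a block 9 of 139 features (6.47%) passed in the CTRL joint, miR-8993 among them (edgeR adjusted p = 0.00723), and it also passed without horse 2 (0.0432). For miR-8993 the adjusted p in the CTRL joint ran from 0.00209 to 0.989 over all alternatives, and it was 0.151 without the 2 libraries over 10000 CPM. In edgeR with lane as a covariate it was 0.0563.

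In plasma 10 of 92 features (10.9%) changed over time in edgeR, among them miR-8993, the 1 high-numbered name tested, with the smallest p of all (adjusted p = 0.00639). Its level was 2686 ± 5327 CPM at time point 0, 0.543 ± 0.941 CPM at 10, 296.8 ± 593.6 CPM at 35, 0 at 42 and 49, 8102 ± 16070 CPM at 56 and 0 at 63 (SD, n = 4, or 3 at time points 10 and 63). The SD exceeds the mean at each time point with reads. The call rests on single horses: its edgeR adjusted p was 0.173 without horse 4 and 0.0605 without horse 8, it had too few reads to be tested without horse 6, and it was 0.152 with horse as a block, where 0 of 92 features (0%) passed. Without the 3 plasma libraries rich in microRNA it was 0.0136, and it ran from 0.000347 to 0.173 over the alternatives in edgeR that gave it one. DESeq2 called 0 of the 92 features, 17 of them with an unadjusted p under 0.05, and gave miR-8993 no p. With RLE scaling edgeR called 1 feature, miR-8993.

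Whether the change over time differed between the joints was tested by the interaction of joint and time, a test added after these values had been seen. It called 1 of 139 features (0.719%), miR-8993 (edgeR adjusted p = 0.00214), while miR-8917 (0.49) and miR-9021 (0.963) did not pass. With horse as a block it called 2 of 139 features (1.44%), miR-8993 among them (edgeR adjusted p = 2.47e-06). The adjusted p of miR-8993 was 0.0638 without horse 4, 0.511 without horse 6 and 0.245 without the 2 CTRL-joint libraries over 10000 CPM, so this call rests on those horses and libraries. In edgeR with lane as a covariate the adjusted p of miR-8993 was 0.00131. Over all alternatives it ran from 8.29e-08 to 0.511.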

How the data were processed

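The TriLink CleanTag kit was used for library preparation, per the labels' protocols. The submitters' processing notes name cutadapt, Bowtie, edgeR and the build EquCab3.0. Their versions and settings are not stated there, nor is the treatment of reads that match several similar microRNAs. The values tested are the deposited read counts, whole numbers per name. The deposited RPM column only gave library totals. Spike-ins stayed out of library sizes.

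The names and lists were chosen with earlier results of these data known. Every name with a read is named, and those with at least 100 reads or 10 libraries are described in full. Counts were tested with edgeR 4.0.16 (quasi-likelihood, TMM, filterByExpr with a minimum of 10, Benjamini-Hochberg at 0.05) in R 4.3.3 over all names that passed the filter. Plasma against either joint, and OA against CTRL joint after time point 0, used sums per horse. Joints at time points and over time used 52 libraries in 14 groups, and plasma 26 in 7. The scripts were tested on simulated data. Same-numbered samples come from the same horse, so the numbers pair them; their deviations correlated between -0.193 and 0.107. Alternatives were RLE scaling, no filter, DESeq2 1.42.0, horse as a block, lane, and leaving out horses or libraries. Reads without molecular identifiers are not independent molecules, so intervals and floors cover counting error only. The p-values of the sums per horse measure the spread between 4 horses. The fits of single libraries treat libraries of 1 horse as independent unless horse is a block, so their p-values do not measure that spread alone. No 2 libraries had identical counts. Summaries used Python 3.11.15.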

Additional observations from a re-analysis of the deposited data

Results flagged for a closer look

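In 12 of 19 groups of 4 values examined, the highest value stood far from the other 3, relative to the range of the group. Chance flags about 1 in 20 groups of continuous values, a rate that does not apply to counts mostly at 0. In 5 of the groups only 1 value was above 0, so the flag was fixed by that alone. Of all 12 flagged values, those in sums per horse were miR-8993 in plasma of horse 4 (3759 CPM) and in the OA joint of horse 6 (1943 CPM), miR-8917 in the OA joint of horse 2 (219.7 CPM), miR-9094 in the OA joint of horse 6 (356.6 CPM) and miR-9021 in the CTRL joint of horse 4 (463.2 CPM). The flagged values in single libraries were all of miR-8993. In plasma these were horse 6 at time points 0 (10680 CPM) and 35 (1187 CPM) and horse 4 at time point 56 (32210 CPM). In the OA joint they were horse 8 at time point 35 (3186 CPM) and horse 6 at time point 42 (3623 CPM). In the CTRL joint they were horse 8 at time point 0 (31110 CPM) and horse 4 at time point 56 (27750 CPM).

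The interaction test called the change of miR-8993 over time as different between the OA joint and the CTRL joint (edgeR adjusted p = 0.00214, range 8.29e-08 to 0.511 over its alternatives). That test was added after these values had been seen, so its p is no independent support. The edgeR adjusted p was 0.0638 without horse 4, 0.511 without horse 6 and 0.245 without the 2 CTRL-joint libraries over 10000 CPM.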

How the results depend on the processing

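Among results for single names, 161 alternative values kept their side of the threshold, and their direction where the test has one. The tests of change over time have none. Of the other values, 10 newly passed, 6 no longer passed and 9 reversed. The causes were not tested. The log2 fold of miR-8993 reversed in plasma against the CTRL joint without horse 8 (0.44) and without the 3 plasma libraries rich in microRNA (0.012), against the OA joint with the replicate block (-4.49) and without horse 4 (-3.79), and in the OA against the CTRL joint after time point 0 with the replicate block (1.71), without horse 4 (2.01) and without the 2 CTRL-joint libraries over 10000 CPM (0.99), the last chosen after seeing the data. miR-9021 reversed there without horse 8 (-0.22), and miR-8993 at time point 63 without horse 8 (adjusted p = 1). Counts of features called moved as follows. Plasma against the CTRL joint gave 2 without the rich libraries, 1 on lane 1 only and 8 to 38 leaving out a horse. Plasma against the OA joint gave 21 to 44 features and 0 to 1 high-numbered names leaving out a horse. On lane 1 it was not run, since its OA-joint libraries come from 1 horse. The joints after time point 0 gave 5 with no filter, 4 in DESeq2 and 3 with the replicate block. The joints at single time points gave 112 calls in DESeq2, added over 7 time points with 139 features tested at each. Of these calls 6 were of miR-8993. Leaving out a horse gave 0 calls there. Over time the OA joint gave 46 of 218 features with no filter, among them 3 of 11 high-numbered names. The CTRL joint gave 1 of 218 with no filter, and 2 of 139 in DESeq2 and 9 of 139 with the replicate block. High-numbered names called there were 1 of 11 without the filter and 1 of 3 with the block. Leaving out a horse gave 0 to 3 features and 0 to 1 high-numbered names. Plasma over time gave 1 with RLE scaling, 35 of 234 with no filter (2 of 4 high-numbered names) and 0 in DESeq2. It gave 0 features and 0 high-numbered names with the replicate block, and 1 to 7 features and 0 to 1 high-numbered names leaving out a horse. The interaction gave 2 with the replicate block, 0 features and 0 high-numbered names without those 2 libraries, and 0 to 3 features and 0 to 1 high-numbered names leaving out a horse. With at least 3 or at least 10 reads required in a library, plasma had 2 high-numbered names. With any read counted, plasma had 2 to 4 leaving out a horse. RLE scaling moved the median log2 fold of all features to -0.02 in plasma against the CTRL joint, where TMM gave -0.16. Leaving out 1 horse, the log2 fold of miR-8993 ran from -4.16 to 0.44 in plasma against the CTRL joint, from -3.79 to 3.40 in plasma against the OA joint and from -2.75 to 2.01 between the joints, that of miR-9021 from -0.22 to 9.35 between the joints, where without horse 4 the CTRL joint has 0 reads and the fitted value is no estimate of size, and the adjusted p of miR-8993 at time point 63 from 0.967 to 1. Depth limits what a count of 0 shows: in 1 library it allowed up to 766 CPM, and over a whole fluid up to 2.55 CPM, or 5.79 CPM in plasma without the rich libraries.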
